A study of Mus musculus with 2 samples.

Results

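Genomic imprinting was followed through 42 genes that are known in the mouse to be expressed mainly from the paternal or the maternal chromosome. The genes were listed by name for their known imprinting, with earlier results of these data known, and were matched to the quantified genes by Ensembl identifier. Of the 42, 41 had a row in both gene tables, out of 43346 Ensembl genes in all, and Peg13, a paternally expressed non-coding RNA, was not analysed here. They fell into 17 chromosomal clusters, with 20 genes known as paternally expressed, 16 known as maternally expressed and 5 (Blcap, Grb10, Ddc, Gnas and Inpp5f) whose allelic use differs between transcripts. In all, 35 of the 41 encode proteins and 6 are long non-coding RNAs.

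The tissue was forebrain of B6NCrl mouse embryos at embryonic day 11.5 (E11.5), healthy and of mixed sex, with no treatment and no second condition. Replicate 1 was a pool from 109 embryos and replicate 2 a pool from 88 embryos. From each, 10 ng of total RNA over 200 nucleotides, extracted with mirVana, went into a library by a SMART-seq protocol, with spike-in RNAs added. The single group of 2 pooled libraries allows levels and their spread to be described, and no test between conditions was possible.

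Imprinted genes sit in clusters controlled by differentially methylated regions, where the methylation laid down in one parental germline keeps one of the alleles silent. Many clusters pair genes that promote growth from the paternal allele with genes that restrain it from the maternal allele, and long non-coding RNAs often silence their neighbours in cis. Several of these genes are strongly expressed in the embryonic brain. The deposited tables hold no allelic counts, so the parental allele is background knowledge and was not measured here.

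Promoter windows give the sequence around annotated starts. The RefSeq windows (GRCm38.p6, 250 bases before to 50 after a start) covered 34 of the 42 genes with 53 windows; H19, Peg10, Sgce, Rtl1, Cdkn1c, Impact, Trappc9 and Peg13 had none in the table. They were searched on both strands for TGCCGC, the core of the motif bound by ZFP57, the zinc finger protein that guards methylated imprints. The 5 windows printed here belong to Mest, Nnat, Grb10, Gnas and Peg3, and each is the window nearest the first base of the leading transcript of that gene. Each is read 5′ to 3′ on the strand of the gene, and capitals mark TGCCGC or its complement on the other strand, GCGGCA.
Mest, chr6:30737800-30738099, plus strand: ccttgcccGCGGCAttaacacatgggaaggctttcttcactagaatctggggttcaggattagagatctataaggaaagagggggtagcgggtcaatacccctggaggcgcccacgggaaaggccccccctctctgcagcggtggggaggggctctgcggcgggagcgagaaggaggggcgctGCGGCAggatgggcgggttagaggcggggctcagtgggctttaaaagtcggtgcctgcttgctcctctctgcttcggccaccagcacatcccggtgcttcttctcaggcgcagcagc
Nnat, chr2:157559828-157560127, plus strand: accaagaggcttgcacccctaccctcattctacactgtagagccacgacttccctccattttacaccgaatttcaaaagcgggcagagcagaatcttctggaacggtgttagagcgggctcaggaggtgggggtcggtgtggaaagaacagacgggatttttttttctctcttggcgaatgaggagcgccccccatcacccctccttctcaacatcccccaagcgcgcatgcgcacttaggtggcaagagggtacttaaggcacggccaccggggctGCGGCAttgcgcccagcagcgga
Grb10, chr11:12037371-12037670, minus strand: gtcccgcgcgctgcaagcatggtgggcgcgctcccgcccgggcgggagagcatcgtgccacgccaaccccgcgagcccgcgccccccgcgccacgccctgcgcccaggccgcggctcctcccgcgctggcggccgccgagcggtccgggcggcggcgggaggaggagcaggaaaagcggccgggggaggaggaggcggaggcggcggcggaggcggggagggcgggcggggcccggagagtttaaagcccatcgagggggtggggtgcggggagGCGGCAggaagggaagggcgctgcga
Gnas, chr2:174329756-174330055, plus strand: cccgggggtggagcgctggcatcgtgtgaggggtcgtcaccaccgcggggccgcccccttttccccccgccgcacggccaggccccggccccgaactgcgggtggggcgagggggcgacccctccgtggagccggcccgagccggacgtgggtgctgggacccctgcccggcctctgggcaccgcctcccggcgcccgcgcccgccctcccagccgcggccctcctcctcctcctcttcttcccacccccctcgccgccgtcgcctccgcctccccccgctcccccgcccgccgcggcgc
Peg3, chr7:6730370-6730669, minus strand: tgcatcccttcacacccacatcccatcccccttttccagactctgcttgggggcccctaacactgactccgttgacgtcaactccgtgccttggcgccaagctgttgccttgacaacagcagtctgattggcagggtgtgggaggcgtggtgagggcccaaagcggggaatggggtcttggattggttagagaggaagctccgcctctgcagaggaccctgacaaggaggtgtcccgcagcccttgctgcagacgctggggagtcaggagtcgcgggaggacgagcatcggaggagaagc

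The Mest window held 2 matches, those of Nnat and Grb10 held 1 each, and those of Gnas and Peg3 held 0. CpG dinucleotides numbered 17 in the Mest window, 17 at Nnat, 45 at Grb10, 40 at Gnas and 13 at Peg3. Among all 53 windows of the imprinted genes, 11 (20.8%) held a match, against 11.6% of all 32851 windows in the table. Among the 11, the Mest windows starting at 30737800 and 30737803 overlap and both hold the same 2 matches. Counted by gene, 10 of 34 imprinted genes (29.4%) had a match in at least 1 window, against 13.1% of 27025 genes. Imprinted genes had more windows per gene, which gives each more places for a match, and this was not adjusted for. The 10 were Igf2, Mest, Copg2, Zim1, Nnat, Snrpn, Meg3, Plagl1, Grb10 and Commd1. The windows of imprinted genes also held more CpG dinucleotides, with a median of 13 against 7 in all windows. The motif TGCCGC itself holds a CpG, and the shares with a match were not adjusted for CpG content. A match describes these letters only, and says nothing on whether a protein binds there.

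Levels were compared between genes in TPM, the share of a library's transcript molecules after correction for transcript length. A gene was called detected when its TPM was 1 or more in both libraries. By this rule 34 of the 41 imprinted genes were detected. Of the 35 coding genes 28 were detected, while 58.6% of all 21474 coding genes passed the same threshold. Of the 6 non-coding RNAs all 6 were detected, while 12.9% of all 5694 long non-coding genes passed. Coding imprinted genes at a mean of 100 TPM or more numbered 11 of 35 (31.4%), against 7.27% of all coding genes. In bulk tissue, fewer cells of a type and less RNA per cell cannot be told apart, so a low level may be either.

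**Figure D1:**
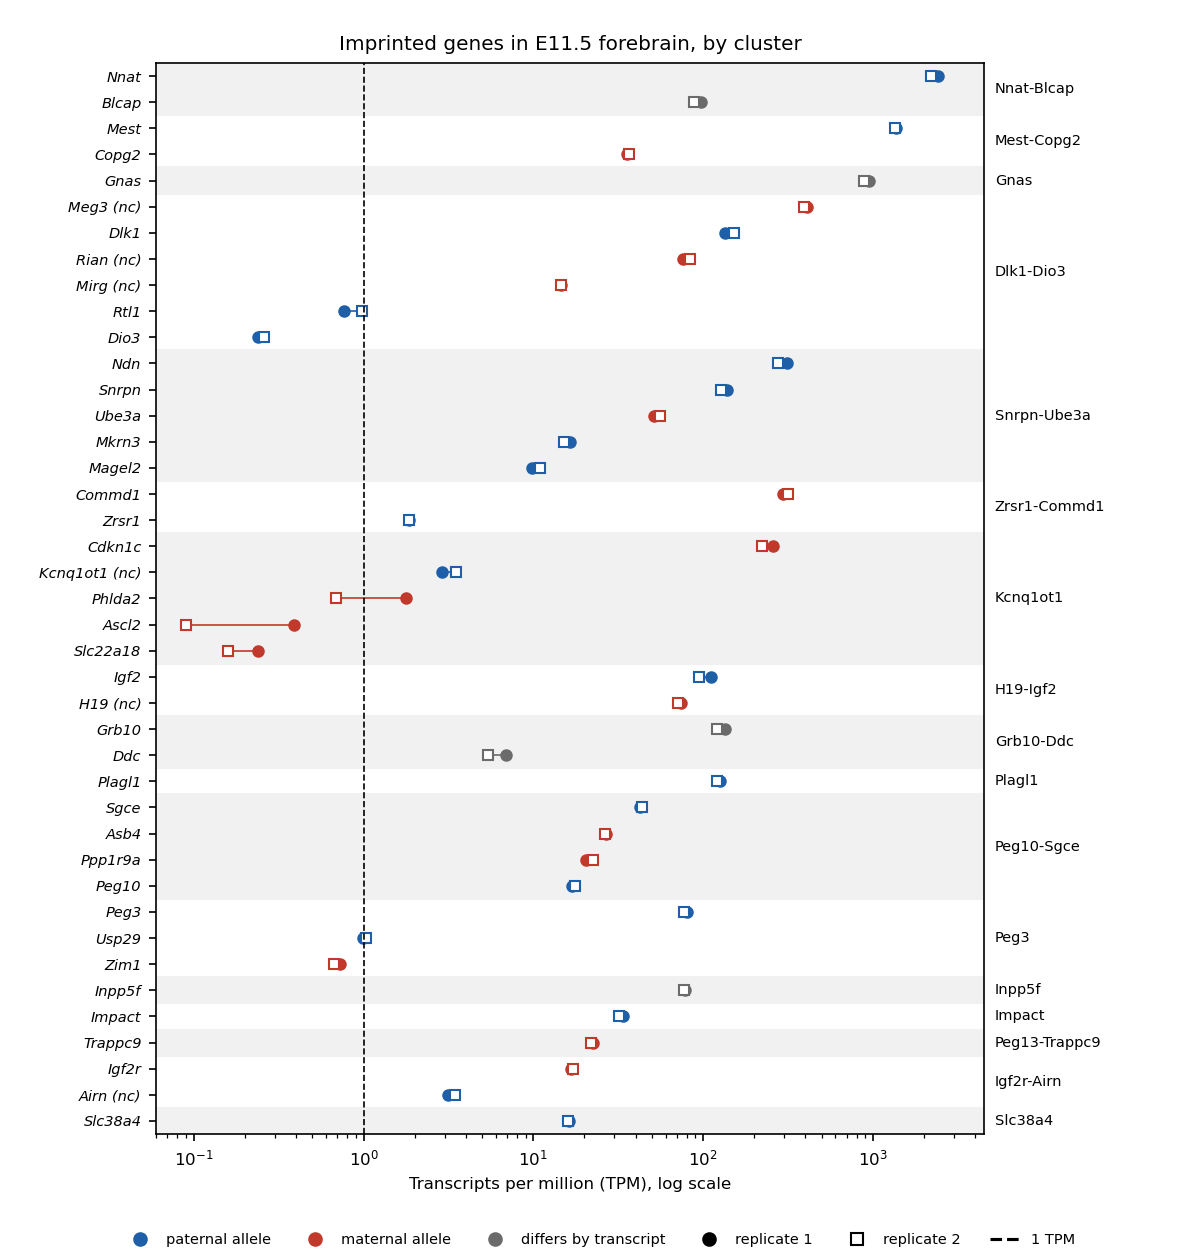
TPM of each imprinted gene in replicate 1 (filled circles) and replicate 2 (open squares) on a log scale, grouped by cluster with the highest summed cluster at the top; colours give the known parental allele, "nc" marks non-coding RNAs and the dashed line is 1 TPM. Nnat, Mest and Gnas lie highest, 7 genes fall below 1 TPM in at least 1 library, and Phlda2 and Ascl2 show the widest gaps between the libraries.

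The 3 most abundant imprinted genes were Nnat, Mest and Gnas, which together made up 63.9% of the summed TPM of the imprinted genes in replicate 1 and 63.4% in replicate 2. All 41 together made up 0.847% and 0.802% of the TPM of Ensembl genes. Nnat encodes neuronatin, a small membrane proteolipid of the developing brain, and it stood at 2399 TPM in replicate 1 and 2200 TPM in replicate 2. This placed it above 99.9% of coding genes. Blcap, in one of whose introns Nnat lies, was at 97.6 and 87.9 TPM, so that Nnat exceeded its host 24.6-fold in replicate 1 and 25.0-fold in replicate 2. Both genes were slightly higher in replicate 1, and the fold between them was nearly equal in the libraries.

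Mest encodes a hydrolase-family protein expressed in mesoderm and brain, and its paternally expressed transcript is among the classical marks of imprinting. It was at 1367 TPM in replicate 1 and 1350 TPM in replicate 2. Copg2, a neighbouring gene of the COPI vesicle coat that is read in the opposite direction, was at 35.8 and 36.6 TPM. Mest therefore exceeded Copg2 38.2-fold and 36.9-fold. The annotated exons of the pair share 912 bases on opposite strands and their expected counts were fractional. The counts of the pair summed to whole numbers, 50784 in replicate 1 and 73405 in replicate 2. Reads of the shared stretch may thus have been divided between them. How strand was handled is not given in the sources used here.

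Gnas encodes the stimulatory G-protein alpha subunit and alternative products from upstream promoters. Its gene total was 942 TPM in replicate 1 and 885 TPM in replicate 2. Its antisense transcript Nespas was at 7.69 and 8.39 TPM. The Gnas total hardly differed between the libraries, and its division between promoters is described with the transcripts.

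In the Dlk1-Dio3 cluster on chromosome 12, coding genes are expressed from the paternal chromosome and non-coding RNAs from the maternal one. Dlk1, a membrane ligand related to Notch ligands, was at 134 TPM in replicate 1 and 151 TPM in replicate 2. The other paternal genes were low. Rtl1, a domesticated retrotransposon gene needed in placenta, was at 0.77 and 0.98 TPM from 74 and 135 counts, and Dio3, the deiodinase that inactivates thyroid hormone, was at 0.24 and 0.26 TPM from 6 and 11 counts. Of the maternal RNAs, Meg3 was at 409 and 393 TPM, Rian, a host of small nucleolar RNAs, at 76.2 and 83.1 TPM, and Mirg, a host of microRNAs, at 14.6 and 14.6 TPM. The 3 maternal RNAs thus descended in level in their order along the chromosome, and Meg3 exceeded Dlk1 3.05-fold in replicate 1 and 2.60-fold in replicate 2. Between the highest and the lowest gene of the cluster lay a 1705-fold range in replicate 1 and a 1510-fold range in replicate 2, although the lowest rests on few reads.

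The H19-Igf2 pair shares enhancers and an insulator at the imprinting control region. Paternally expressed Igf2, a fetal growth factor, was at 110 TPM in replicate 1 and 94.6 TPM in replicate 2. Maternally expressed H19, the non-coding precursor of miR-675, was at 74.0 and 71.0 TPM. Igf2 was the higher of the pair in both libraries, by 1.49-fold and 1.33-fold. The receptor that clears IGF2, encoded by Igf2r, was at 16.6 and 17.1 TPM. Airn, the paternal antisense RNA that starts inside Igf2r and silences it in cis, was at 3.13 and 3.47 TPM from 41 and 70 counts. In replicate 1 Airn stood at 0.189 of the Igf2r level and in replicate 2 at 0.203, a ratio of whole-tissue levels that does not resolve alleles or cells.

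Among the hosts of microRNAs, mature sequences are shown for H19, Igf2 and Mest, as examples of hosts above 50 TPM with a single RefSeq hairpin. Meg3 and Usp29 also hold 1 RefSeq hairpin each. The GENCODE annotation places a further microRNA gene, Mir1906-1, in exons of Meg3, and it was not searched here. Mir675 lies in an exon of H19, Mir483 in an intron of Igf2 and Mir335 in an intron of Mest, all on the strand of the host. Seeds (bases 2 to 8) are in capitals.
mmu-miR-675-5p: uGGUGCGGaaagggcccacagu
mmu-miR-675-3p: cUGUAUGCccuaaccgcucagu
mmu-miR-483-5p: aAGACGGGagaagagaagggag
mmu-miR-483-3p: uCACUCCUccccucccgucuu
mmu-miR-335-5p: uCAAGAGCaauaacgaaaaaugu
mmu-miR-335-3p: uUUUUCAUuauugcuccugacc

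The 6 seeds differ from each other. RNA over 200 nucleotides was sequenced, so these values concern the host RNAs and not the mature microRNAs. In the Dlk1-Dio3 cluster Mirg spans 14 hairpins of the RefSeq table, Rian 3 and Meg3 1, all on the host strand. Rtl1, which was below 1 TPM, has 6 hairpins on the opposite strand of its exons, the antisense microRNAs that are expressed from the maternal chromosome. It also has 1 hairpin, Mir3071, in an exon on its own strand. Of the mature sequences in Mirg, Rian and Meg3, a single pair shared a seed, miR-453 and miR-496a-5p, with GGUUGCC at bases 2 to 8.

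The Snrpn-Ube3a region on chromosome 7 corresponds to the human region of the Prader-Willi and Angelman syndromes. Of its paternal genes, Ndn, which encodes the MAGE-family protein necdin of postmitotic neurons, led with 310 TPM in replicate 1 and 277 TPM in replicate 2. Snrpn, which encodes a splicing protein, was at 138 and 127 TPM. The intronless genes Mkrn3 and Magel2, a putative ubiquitin ligase and a MAGE-family regulator of ubiquitination, were at 16.4 and 15.2 TPM and at 9.83 and 10.9 TPM. Ndn thus exceeded its neighbour Magel2 31.5-fold and 25.4-fold. Ube3a, the ubiquitin ligase that is maternally expressed in mature neurons, was at 51.2 TPM in replicate 1 and 55.8 TPM in replicate 2. Snhg14, whose distal part runs antisense to Ube3a in neurons, was at 31.6 and 37.7 TPM, and its annotated exons share 1803 bases with those of Ube3a. Expected counts of both were whole, 3909 and 6161 for Ube3a and 1027 and 1727 for Snhg14. The single Ube3a transcript quantified had 5097 bases, a length unlike that in the annotation that gave the shared bases. Whether the shared bases were part of it is not known. The whole counts therefore cannot show how reads of the shared bases were treated. Without stated strand handling, reads from the shared bases cannot be placed on one strand.

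In the Kcnq1ot1 cluster, the paternal non-coding RNA Kcnq1ot1 silences maternal genes in cis. Cdkn1c, the maternal gene that encodes the cell-cycle inhibitor p57, was at 257 TPM in replicate 1 and 223 TPM in replicate 2. Kcnq1ot1 was at 2.90 and 3.52 TPM. The remaining maternal genes were near or below 1 TPM and are best known from the placenta or other organs. Phlda2, a growth restrainer of placenta, was at 1.79 and 0.69 TPM, the transporter gene Slc22a18 at 0.24 and 0.16 TPM, and Ascl2, a trophoblast transcription factor, at 0.39 and 0.09 TPM. These 3 rested on 18 and 10, 5 and 5, and 9 and 3 counts in replicates 1 and 2, which leaves their levels poorly determined. Kcnq1, within which Kcnq1ot1 starts, was itself at 0.90 and 1.15 TPM.

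Peg3 and Usp29 are paternal genes read in opposite directions from a shared CpG-rich region. Peg3, a zinc finger gene with roles in growth and maternal behaviour, was at 80.02 TPM in replicate 1 and 77.0 TPM in replicate 2. The deubiquitinase gene Usp29 was at 0.99 and 1.04 TPM, and the maternal zinc finger gene Zim1 at 0.73 and 0.67 TPM. Peg3 thus carried nearly all of the level of this cluster. The RefSeq windows of Peg3 and Usp29 overlap by 263 bases, yet the single Usp29 transcript in the files begins 230.7 kb from the Peg3 start in the annotation. The Usp29 value therefore does not measure output of the shared window as a whole.

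The Peg10-Sgce cluster on chromosome 6 held a narrow range of levels. Paternal Sgce, which encodes epsilon-sarcoglycan, was at 42.4 TPM in replicate 1 and 43.9 TPM in replicate 2. Paternal Peg10, a retrotransposon-derived gene needed in placenta, was at 16.8 and 17.5 TPM. Their annotated starts lie 99 bases apart on opposite strands, and Sgce exceeded Peg10 2.53-fold in replicate 1 and 2.50-fold in replicate 2. The maternal genes lay between them. Asb4, which encodes a substrate adaptor of ubiquitin ligases, was at 26.9 and 26.3 TPM, and Ppp1r9a, which encodes the actin-binding neurabin, at 20.4 and 22.6 TPM.

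Zrsr1 is an intronless paternal gene within an intron of Commd1, which encodes a regulator of copper handling and protein turnover. Commd1 was at 296 TPM in replicate 1 and 315 TPM in replicate 2, and Zrsr1 was at 1.85 and 1.84 TPM. The host thus exceeded the nested gene 160-fold and 171-fold. The annotated length of Commd1 averages 556 bases, and its 2083 and 3158 expected counts were fewer than the 9349 and 13251 of Peg3, whose TPM was lower. Exons of Zrsr1 and Commd1 share 412 bases on opposite strands, and both had fractional counts. The counts of the pair did not sum to whole numbers, at 2173.5 in replicate 1 and 3288.08 in replicate 2. Commd1 also shares 294 bases on the same strand with Gm28048, which was at 5.24 and 4.74 TPM. How reads were divided among these genes was not tested.

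Of the Grb10-Ddc pair on chromosome 11, Grb10, an adaptor that restrains insulin and growth factor signalling, was at 134 TPM in replicate 1 and 120 TPM in replicate 2. Ddc, which encodes the decarboxylase that makes dopamine and serotonin, was at 6.90 and 5.43 TPM. Plagl1, a paternal zinc finger regulator of growth, was at 125 and 121 TPM, at a level like that of Grb10. Inpp5f, which encodes an inositol phosphatase, was at 77.9 and 77.1 TPM. Impact, a paternal inhibitor of GCN2 signalling, was at 33.6 and 31.7 TPM. Maternally biased Trappc9, which encodes a subunit of a vesicle-tethering complex, was at 22.4 and 21.7 TPM. The paternal amino acid transporter gene Slc38a4 was at 16.2 and 16.1 TPM. Of these loci, Grb10 differed most between the libraries in TPM. As a ratio of replicate 1 over replicate 2 in scaled counts, Ddc differed most, at 1.18, and Grb10 was at 1.09. The Ddc ratio rested on 141 and 172 counts.

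Set against each other by allele, 17 of 20 paternally expressed genes and 12 of 16 maternally expressed genes were detected, as were all 5 of those that differ by transcript. The summed level of paternally expressed genes was 4809 TPM in replicate 1 and 4545 TPM in replicate 2, against 1303 and 1281 TPM for maternally expressed genes. Paternally expressed genes thus made up 78.7% and 78.0% of the sum of both. The medians did not follow the sums. The median TPM was 25.2 and 24.6 TPM for paternally expressed genes, against 24.7 and 24.4 TPM for maternally expressed ones. With both groups even in number, each median averages a middle pair. Averaged after the logarithm, on the log2(TPM + 1) scale, the paternal minus maternal difference was −0.04 in each library, so its sign depended on the scale and the medians were close on both. The sum was carried by few genes: without Nnat, the paternal share was 64.8% as the mean of the libraries. As means of the libraries, Nnat held 2300 TPM and Mest 1358 TPM of a paternal sum of 4677 TPM. The maternal sum was 1292 TPM, so the paternal sum was the larger only with Nnat or Mest included.

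The median depends on which genes count as imprinted. Of the maternally expressed genes, several are imprinted in some tissues only, among them Igf2r, Copg2, Ube3a, Commd1, Asb4, Ppp1r9a and Trappc9. Without such tissue-limited genes the paternal minus maternal difference of medians was −1.57, with H19, Meg3, Rian, Mirg and Cdkn1c among the maternal genes that remained. Over coding genes alone the difference was 0.79 in replicate 1 and 0.73 in replicate 2, and the paternal share of TPM was 86.8% and 86.3%. The sign of the median difference therefore depended on the scale and on the genes included. The paternal share of the sum was above 50% in each of these selections, all of which kept Mest.

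How the medians of coding and non-coding imprinted genes compared depended on the scale. The median was 33.6 TPM in replicate 1 and 31.7 TPM in replicate 2 for the 35 coding genes, against 44.3 and 42.8 TPM for the 6 non-coding RNAs. On the log2(TPM + 1) scale, where the median of 6 values averages the middle pair after the logarithm, the coding minus non-coding difference was 0.02 in replicate 1 and −0.03 in replicate 2. On this scale the difference changed sign between the libraries and was smaller than their spread, while in TPM the non-coding median was higher in both. The non-coding middle pair lay far apart, with Mirg at 14.6 and 14.6 TPM and H19 at 74.0 and 71.0 TPM. The log2 difference was 0.95 when only detected genes entered, since all 7 genes below the threshold were coding. For comparison, the median over all coding genes was 3.99 and 3.89 TPM, and that over all long non-coding genes was 0 in both libraries.

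The non-coding RNAs divided by allele. The 4 maternal ones (H19, Meg3, Rian and Mirg) summed to 574 TPM in replicate 1 and 561 TPM in replicate 2. The paternal ones, Airn and Kcnq1ot1, which silence their neighbours in cis, summed to 6.03 and 6.99 TPM. Of the 6 RNAs, Airn and Kcnq1ot1 were the lowest per length in both libraries. In reads the order was another: Kcnq1ot1 drew 3736 expected counts in replicate 1 and 6570 in replicate 2, against 41 and 70 for Airn. By expected counts Kcnq1ot1 was the 10th of the 41 genes and by TPM the 33rd. Its annotated length of 84395 bases was the largest among the imprinted genes.

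**Figure D2:**
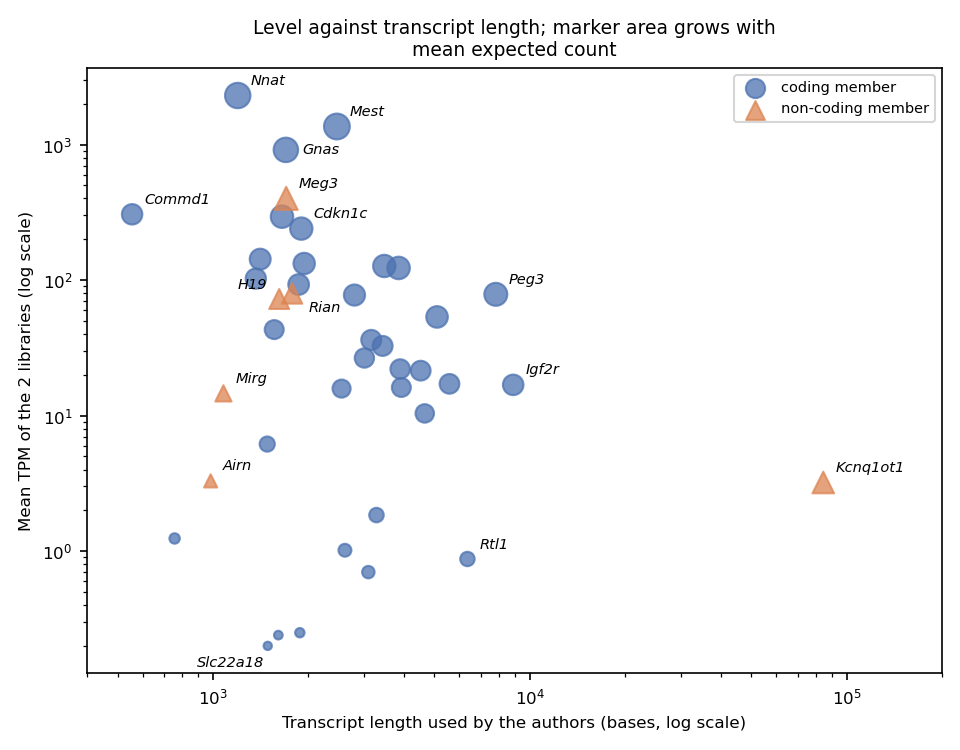
Mean TPM of the 2 libraries against the transcript length given in the gene tables, both on log scales, for 35 coding (circles) and 6 non-coding (triangles) imprinted genes; larger markers had more expected counts. Kcnq1ot1 lies alone at 84395 bases, with a low TPM and a large count, while Commd1 is the shortest at 556 bases.

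Kcnq1ot1 is a largely unspliced RNA, and total RNA can hold unspliced RNA of other genes of the region. A read from an intron of Kcnq1 that overlaps Kcnq1ot1 would fall in the same interval. The part of such reads in the Kcnq1ot1 value was not tested. The annotated exons of Kcnq1 and Kcnq1ot1 share 121 bases. The length given for Airn, 984 bases, is that of its spliced transcripts, so its value does not describe the long unspliced Airn RNA.

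The choice of transcript start is part of imprinting at several loci. Transcript tables listed 260 transcripts for the 41 genes, of which 255 were found in GENCODE M21. Transcripts were grouped where neighbouring starts lay within 1500 bases, and each group was given as a percent of the TPM of its gene. For 26 genes with more than 1 transcript and a mean of 5 TPM or more, the leading transcript had a median share of 70.6%. Its share was 80% or more in 9 genes and below 50% in 9. Transcript shares are estimates from reads that several transcripts hold in common.

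**Figure D3:**
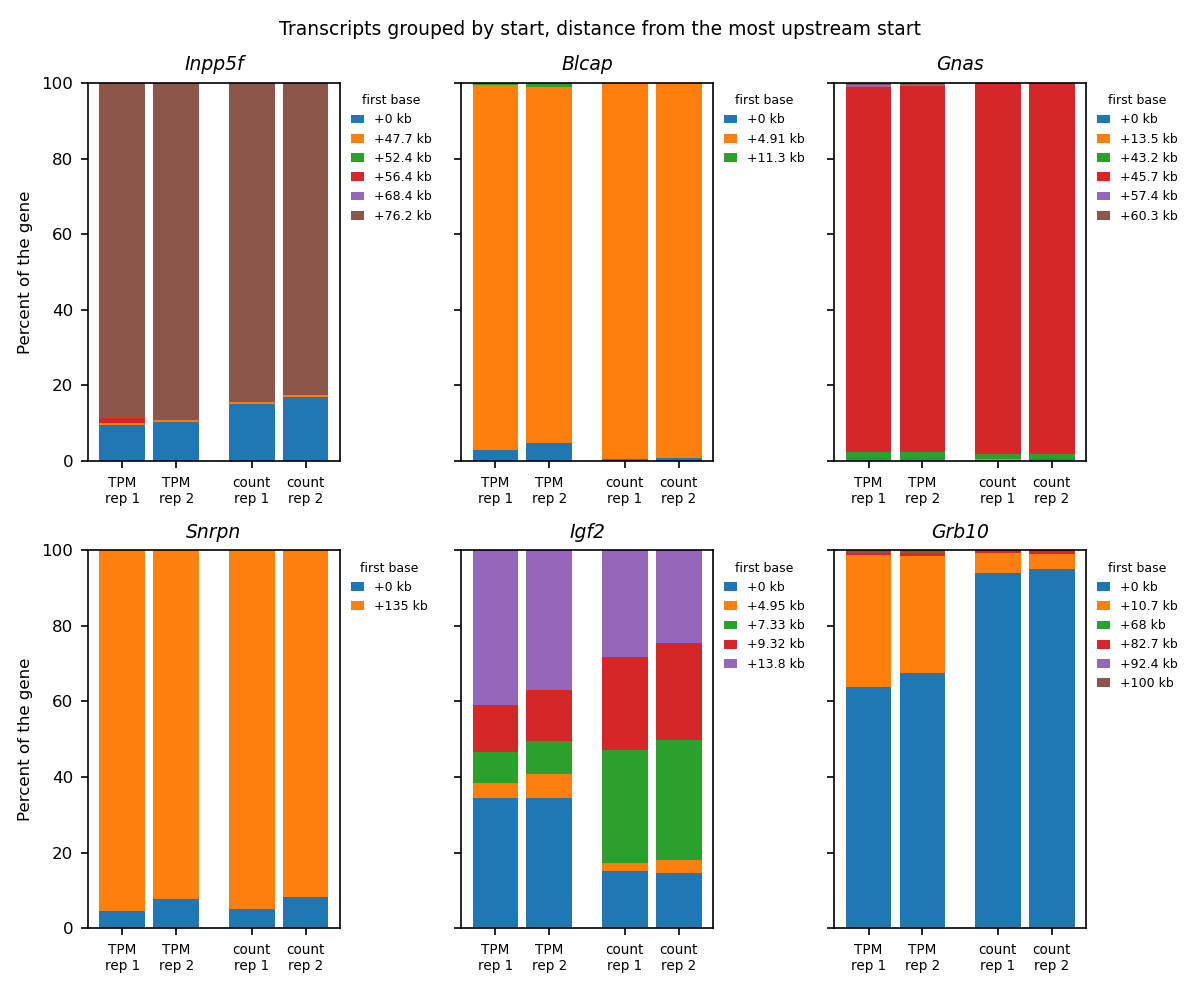
Percent of each gene by the start of its transcripts, from TPM (left pair of bars) and from expected counts (right pair), with replicate 1 left of replicate 2 in each pair; colours run from the most upstream start (+0 kb) downwards. Inpp5f, Blcap, Gnas and Snrpn are each carried by a single start group in all 4 bars, while Igf2 and Grb10 divide differently by TPM and by counts.

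Gnas output came almost wholly from the start of the G-protein alpha transcripts. Transcripts from there, at positions 174330006 to 174330287 of chromosome 2, made up 96.5% of Gnas TPM in replicate 1 and 96.7% in replicate 2. The group next upstream, at 174327570 to 174328023, where the paternally expressed exon 1A transcripts begin, made up 1.97% and 2.15%. The group at 174284320 to 174285358, which holds the maternally expressed Nesp transcripts, was at 3.38 and 3.03 TPM, and the paternally expressed XL group at 174297859 was at 0.22 and 0.20 TPM. The transcripts that are imprinted in most tissues were thus the minor ones of the locus, and the start with the most output is the one that is biallelic in most tissues. Nespas overlaps the Nesp exons on the other strand, and its reads may be divided with them.

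Inpp5f was the reverse case, since its level rested on an internal start. Transcripts beginning 76.2 kb downstream of the first start, where the paternally expressed short form known from mouse brain begins, made up 88.6% of the TPM in replicate 1 and 89.1% in replicate 2. Transcripts from the first start made up 9.65% and 10.3%. The full-length one among them, Inpp5f-201, had 8.10% and 9.67%. By expected counts, which favour longer transcripts, the internal group had 84.3% and 82.5%. The internal start carried most of the gene by both measures.

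Grb10 has an upstream start used by maternally expressed transcripts in most tissues, and downstream starts used by paternally expressed transcripts in neurons. The upstream group made up 64.0% of the TPM in replicate 1 and 67.6% in replicate 2. The downstream group, 10.7 kb further on, made up 34.7% and 30.8%. The downstream group rested on 1 short coding transcript of 430 bases, with 33.0% and 29.2% of the TPM of the gene. By expected counts the upstream group had 94.0% and 94.9% and the downstream group 5.25% and 4.13%. The downstream share was thus large per length and small in reads.

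Blcap, unlike Grb10, was led by a main start that lies downstream of another. The main start at 157566361 made up 96.6% of Blcap TPM in replicate 1 and 94.1% in replicate 2, and the upstream start at 157571274 made up 2.95% and 4.82%. The Snrpn transcript that begins at 60005111 made up 95.3% and 92.3% of Snrpn, and the transcript from 135 kb upstream the rest. Mest was carried by the start at 30738050, within whose window both motif matches lie, with 98.5% and 98.9%. Plagl1 was carried by starts from 13090691 onwards, with 97.2% and 97.6%. In these 4 genes 1 start group led in both libraries.

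Igf2 was spread over 5 start groups. The most upstream coding transcript, from 142666816, had 34.5% of the TPM in replicate 1 and 34.5% in replicate 2. The groups from 142661870, 142659489 and 142657496 had 4.05% and 6.24%, 8.03% and 8.86%, and 12.6% and 13.4%. The processed transcript Igf2-208, which begins inside the gene at 142653030, had 40.8% and 36.9%. By expected counts the group at 142659489 led instead, with 29.8% and 31.7%. Igf2-208 had 28.2% and 24.6% of the counts and the group from 142657496 had 24.6% and 25.5%, so their order changed between the libraries. The order of Igf2 starts therefore depended on the measure, and no start held most of the gene by either.

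The maternal non-coding RNAs were also spread over several transcripts. The leading pair of Meg3 transcripts, Meg3-205 and one of 1896 bases, begin at almost the same base and had 43.3% and 24.7% of Meg3 TPM in replicate 1 and 42.8% and 25.8% in replicate 2. Rian-202 had 35.3% and 35.0% of Rian, and H19-205 had 39.7% and 35.5% of H19. For Nnat, Nnat-202 had 62.6% and 63.6%, and Nnat-205 had 25.4% and 24.5%. Sgce-211, a transcript with a retained intron, differed between the libraries, with 9.09% in replicate 1 and 30.0% in replicate 2. Ddc-202 had 14.6% and 46.0% of a gene with 141 and 172 counts, and the second Trappc9 transcript, of 3302 bases, had 27.6% and 9.72%. These last 3 shares differed widely between the libraries.

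The other transcripts with 20% or more of their gene are given by length, first replicate 1 and then replicate 2. A single transcript had over 80% as the mean of the libraries in Slc38a4 (3932 bases, 100% and 100%), Igf2r (8887 bases, 100% and 99.5%), Mest (2554 bases, 94.1% and 95.2%), Asb4 (3286 bases, 86.3% and 87.6%), Blcap (2056 bases, 86.1% and 81.3%), Inpp5f (2609 bases, 85.2% and 86.3%), Gnas (1716 bases, 82.8% and 79.4%) and Peg3 (8694 bases, 81.5% and 84.0%). A leading transcript with a smaller share was found for Cdkn1c (1893 bases, 79.0% and 80.9%), Copg2 (3961 bases, 71.96% and 80.5%), Plagl1 (5260 bases, 67.7% and 70.5%), Grb10 (5061 bases, 62.9% and 65.2%) and Dlk1 (1703 bases, 61.3% and 56.0%). Cdkn1c had a second one of 1931 bases, with 20.97% and 19.10%. In these genes the same transcript led in both libraries.

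Several genes were divided among transcripts of similar share. Commd1 had 3, of 469 bases (39.2% and 40.4%), 473 bases (36.7% and 35.3%) and 760 bases (23.2% and 23.7%). H19 had 2 besides the first, of 817 bases (32.5% and 36.2%) and 2286 bases (27.8% and 28.2%). Rian had a second one of 1219 bases (29.3% and 28.7%), and Mirg had 1 of 694 bases (33.7% and 38.1%) and 1 of 1906 bases (23.7% and 28.4%). Ppp1r9a had 3, of 9547 bases (28.5% and 28.4%), 1680 bases (27.9% and 17.5%) and 2966 bases (16.4% and 24.7%). The order was the same in both libraries for Commd1, Rian and Mirg, and not for H19 and Ppp1r9a.

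Peg10, Sgce, Trappc9 and Ddc differed more between the libraries. The longest Peg10 transcript, of 6667 bases, had 83.4% and 60.9%, and one of 1477 bases had 13.8% and 22.7%. Sgce was led by a transcript of 1696 bases (42.3% and 37.1%), with another of 1588 bases at 33.0% and 20.1%. Trappc9 was led by one of 4047 bases (69.0% and 88.3%). Ddc had one of 964 bases (35.4% and 27.8%) and one of 1922 bases (34.8% and 12.0%), besides the one named above.

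Agreement between the libraries was described by the ratio of replicate 1 over replicate 2 after scaling, with a 95% interval for counting error. Of the 41 genes, all with 10 or more expected counts summed over the libraries, 2 differed by 1.5-fold or more, against 13.6% of 18297 genes with such counts. They were Phlda2, with a ratio of 2.54 (interval 1.14 to 6.30), and Ascl2, with 3.92 (1.08 to 24.9). Both are low genes with few reads. Of the 35 genes with 100 or more counts, 0 differed by 1.5-fold, against 2.78% of 13510 genes. Their ratios lay between 0.793 for Rtl1 and 1.18 for Ddc.

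**Figure D4:**
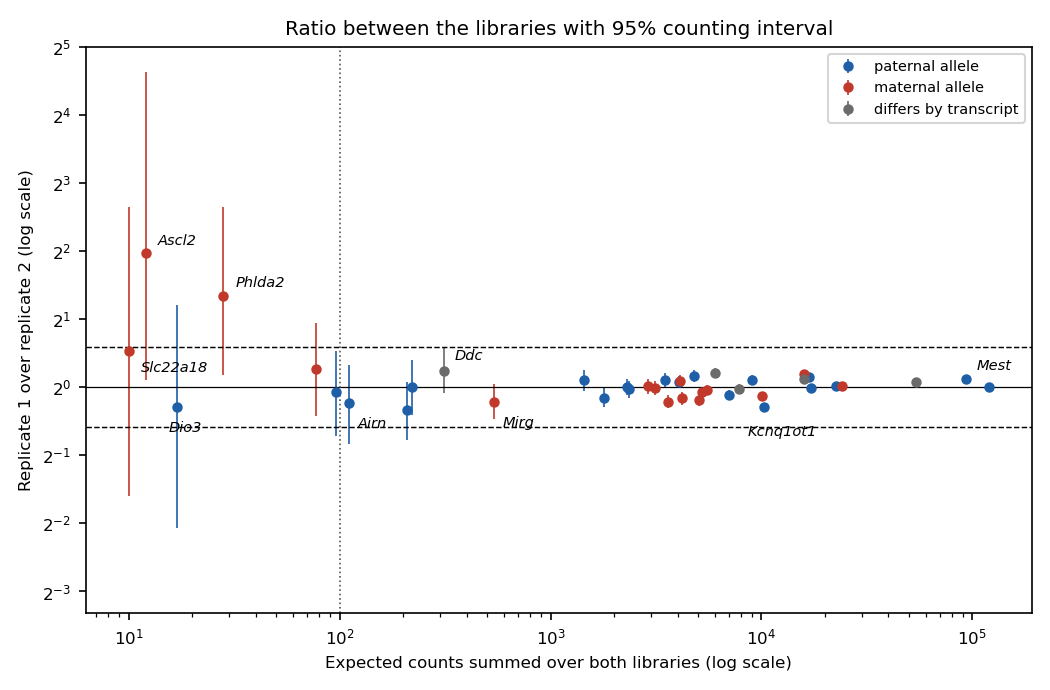
Ratio of scaled expected counts, replicate 1 over replicate 2, against the counts summed over both libraries (both axes on log scales), with exact 95% intervals for counting error as bars, dashed lines at 1.5-fold either way and a dotted line at 100 counts. Phlda2 and Ascl2 lie outside the dashed lines with wide intervals, and all genes right of the dotted line lie inside.

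The median ratio of the 41 genes was 0.01 on the log2 scale, against −0.0045 over the other 18256 genes. Of the 41, 23 (56.1%) were higher in replicate 1, against 49.0% of those other genes. The non-coding RNAs had a median of −0.20 on this scale, with 4 of 6 lower in replicate 1. In the Dlk1-Dio3 cluster 5 of 6 genes were lower in replicate 1, and all 5 were within 1.5-fold. Groups of 6 genes are small, and whether they depart from the share over the other genes was not tested. Kcnq1ot1 had a ratio of 0.820 (0.788 to 0.854) and Cdkn1c of the same cluster 1.15 (1.11 to 1.19), so that these neighbours differed in opposite directions between the libraries. With 1 library on each side, the ratios compare the pools and carry no test.

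The machinery that keeps imprints was expressed in the same tissue. Of 17 genes listed for imprint maintenance 14 were detected, against 58.6% of all coding genes. Of the 14 with 10 or more counts 0 differed by 1.5-fold between the libraries. Among all genes this share was 13.6% with 10 or more counts and 2.78% with 100 or more. Trim28, the corepressor that ZFP57 recruits, led with 471 TPM in replicate 1 and 406 TPM in replicate 2. Uhrf1, which guides DNMT1 to replicated DNA, was at 157 and 177 TPM, Zfp57 itself at 103 and 112 TPM, and Ctcf, which binds the H19-Igf2 insulator, at 111 and 102 TPM. The 3 below the threshold are germline or oocyte genes: Dnmt3l and Dppa3 had 0 counts in both libraries and Ctcfl had 3 and 2.

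Neighbours of the clusters and further imprinted genes were also measured. Of 38 listed, 35 were found in the files and 25 of these were detected. Of all genes, 58.6% of coding and 12.9% of long non-coding ones were detected. The 4 highest were Cd81, a tetraspanin gene, with 194 TPM in replicate 1 and 171 TPM in replicate 2, Nap1l4, a histone chaperone gene, with 171 and 145 TPM, Wars, a tRNA synthetase gene, with 113 and 110 TPM, and H13, a signal peptide peptidase gene, with 87.9 and 87.0 TPM. Of the 31 with 10 or more counts, 1 differed by 1.5-fold, against 13.6% of all genes with such counts. It was Snurf, at 59.7 and 100 TPM, with a ratio of 0.595 (0.470 to 0.746). Its exons share 216 bases with Snrpn on the same strand, and reads may be divided between them.

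Depth differed between the libraries and marker lists were detected alike. Expected counts on Ensembl genes summed to 23165223 in replicate 1 and 33597022 in replicate 2. All 5 progenitor and all 4 neuron markers were detected, as were all markers listed for mesenchyme (8 of 8, summed 692 and 700 TPM), endothelium (5 of 5, 80.9 and 81.0 TPM), primitive red cells (5 of 5, 12764 and 13820 TPM), microglia (4 of 4, 42.7 and 37.0 TPM) and choroid plexus (3 of 3, 19.7 and 18.2 TPM). Among all coding genes the detected share was 58.6%. Tyrobp, of microglia, was the marker past 1.5-fold. Liver, trophoblast and posterior neural markers were detected in 0 of 3 each, with Alb, Tpbpa, Hoxb4 and Hoxc6 at 0 counts in both libraries. Igf2, H19, Dlk1 and Mest are also known from mesenchyme and vessels, and the part of such cells in their levels was not tested.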

How the data were processed

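Total RNA-seq was analysed for 2 libraries of E11.5 forebrain, each from a separate pool of embryos. The authors deposited gene and transcript tables with expected counts, TPM and FPKM, and, for transcripts, the percent of the gene. The build was mm10 with the GENCODE M4 gene set, per notes in the deposited text, which describe alignment to genome and transcriptome. The aligner, the quantifier and the strand setting were not given in the sources used here. Expected counts that are not whole show that reads were divided among features.

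Gene names, coordinates and types came from GENCODE M21 (GRCm38) by Ensembl identifier, and 42462 of 43346 identifiers (98.0%) matched. The 26345 rows without an Ensembl identifier were left out and held 5.66% of the counts in replicate 1 and 5.49% in replicate 2. Totals were 23165223 and 33597022 counts. Levels are the deposited TPM, and medians used log2(TPM + 1). For the ratio between libraries, expected counts were rounded, scaled by TMM (edgeR 4.0.16, R 4.3.3) with DESeq2 1.42.0 size factors as an alternative, and given 0.5 prior counts. Intervals are exact Clopper-Pearson 95% intervals and cover counting error only, as no molecular identifiers are described. The ratio step was tested on simulated counts. No p-value was computed, because there is 1 group.

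All listed imprinted genes were named. Of the maintenance and neighbour lists, the 4 of highest TPM and any past 1.5-fold were named, with Kcnq1, Snhg14, Nespas and the maintenance genes below 1 TPM (Dnmt3l, Dppa3 and Ctcfl) added after their values were seen. Transcripts with 20% or more of a gene of 5 TPM or more were described, and Gnas, Grb10, Inpp5f, Blcap and Igf2 by start, with the starts of Snrpn, Mest and Plagl1 added. The genes, lists and alternatives were chosen with earlier results of these data known. Parental alleles and tissue-limited imprinting are background knowledge.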

Additional observations from a re-analysis of the deposited data

How the results depend on the processing

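The number of detected imprinted genes stayed within 1.5 times of 34 under all alternatives: 38 at 0.5 TPM, 31 at 5 TPM, 38 by 10 counts, 34 by the posterior mean TPM, and 35 with either library alone. The paternal minus maternal difference of medians, −0.0433, was −0.0475 with a pseudocount of 0.1, −0.0283 over detected genes, −0.0414 by posterior mean TPM (−0.0149 and −0.0679 in replicates 1 and 2), −0.0410 by FPKM and −1.57 without tissue-limited genes, and −0.0442 to −0.0424 with 1 library left out. Apart from the last pair, these shifts exceeded the 0.0013 SD of the libraries in TPM. The paternal share of summed TPM, 78.3%, was 79.0% by expected counts, 64.8% without Nnat, 85.3% without tissue-limited genes, 78.2% by posterior mean TPM, and 78.0% to 78.7% with 1 library. The coding minus non-coding difference was 0.95 over detected genes, where the 7 undetected coding genes leave, and within the library spread otherwise, from −0.0442 to 0.0043 by unit and pseudocount and from −0.0343 to 0.0176 with 1 library. Genes past 1.5-fold between libraries numbered 2 under 3 alternatives, 3 by the ratio of TPM (Slc22a18 in addition) and 0 with 100 or more counts, where Phlda2 and Ascl2 are not tested. The median leading transcript share, 70.6%, was 80.7% by expected counts and 67.8% to 68.4% with 1 library. No paired analysis was possible because there is 1 group. Depth limits Phlda2, Slc22a18, Ascl2 and Dio3, with 28 or fewer counts summed.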
